A study of Mus musculus with 6 samples.

Results

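The regions described here are the 468 bins of 1 Mb, out of 2341 bins with enough data and 2666 in the whole map, that had the lowest scores along the leading pattern of contacts between chromosomes. The map is a Hi-C map of mouse embryonic fibroblasts from a 129xCast hybrid background. Hi-C crosslinks chromatin, cuts it (here with HindIII), joins ends that lie close together and sequences the joined pairs. All samples belong to 1 group: 2 embryos of the same cross, each with 3 technical replicates, with no treatment named and with neither the age nor the sex of the embryos in the labels. The authors pooled the libraries into 1 balanced matrix, so the values have no replicates and no test compares samples. The codes 1-2 and 2-1 in the name of the table could mean contacts between a 129 end and a Cast end. They could also mean technical replicate 2 of embryo 1 and technical replicate 1 of embryo 2. The weak dependence of the values on distance points to the first reading. Of 1877655 contacts between bins with enough data, 101600 joined bins of the same chromosome. Contacts within a bin were 3.30 times the number expected from contacts between chromosomes. Both values are low for contacts within 1 copy of a chromosome. The labels do not state which holds, and under the first, contacts within a chromosome are contacts between homologs.

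Chromatin of mammalian nuclei is known to separate into an active and an inactive compartment. Regions of one compartment touch regions of the same compartment on any chromosome more often than regions of the other, and the inactive compartment is known for gene-poor, late-replicating DNA at the nuclear lamina. In a contact map the separation appears as the first eigenvector of the correlation between contact profiles. Its sign is arbitrary and is usually set by gene density. Here it was set so that the mean over chromosome 11, known as gene-dense, was above 0. No mm9 gene positions were used, so the lowest-scoring bins are called by their score and not by a compartment name, and no gene or DNA sequence is given for them.

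Members were chosen by their contacts between chromosomes. A bin was kept when it had at least 50% of the median of 1087 listed partners on other chromosomes. Balanced values between chromosomes were divided by their mean, with unlisted pairs at 0 and same-chromosome entries set to 1. The rows were correlated, the first eigenvector was taken as the score, and the lowest 20% of kept bins were the members. The first eigenvalue was 8.53 and the second 4.55. Eigenvalues of such a correlation matrix sum to its number of bins, 2341, so the score carries a small part of the variation. The score and every contact between chromosomes therefore went into the choice, and values from them are descriptions. Same-chromosome contacts did not enter the score.

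The scores had a short tail at the low end and a long one at the high end. Scores are given as eigenvector entries times 1000. Members ran from −46.4 to −16.0 with a median of −21.9, whereas the top 20% of bins ran from 15.2 to 103. Kept bins were divided by score into 5 groups of like size, with the members as group 1 and the top 20% as group 5. Group 2, next above the threshold, spanned only 7.998 units, from −16.0 to −8.02. The members just inside the threshold were chr14:15000001-16000000, chr13:106000001-107000000 and chr10:125000001-126000000, with −16.05, −16.04 and −16.03. The bins just outside were chr4:52000001-53000000 at −16.02, chr12:31000001-32000000 at −16.02 and chr7:112000001-113000000 at −16.01. No gap in score separated the members from the bins above them.

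The lowest score was that of chr2:171000001-172000000, near the distal end of chromosome 2. On chromosome 8, chr8:30000001-31000000 and chr8:120000001-121000000 followed with −44.5 each. The next were chr12:108000001-109000000 at −40.5 and chr7:83000001-84000000, chr2:21000001-22000000 and chr13:57000001-58000000 at −40.0, −40.0 and −39.9. The list of 10 closed with chr7:6000001-7000000 (−39.5), chr7:131000001-132000000 (−39.4) and chr14:16000001-17000000 (−38.8). These bins lay near the start, in the inner part and near the end of their chromosomes. Chromosome 7 held 3 of them.

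The 10 bins differed in depth and in the contacts behind their scores. They had from 1209 recovered contacts (chr14:16000001-17000000) to 2524 (chr7:131000001-132000000). The bin chr2:171000001-172000000 had 435 contacts with members on other chromosomes, 1.14 times the expected number (95% Poisson interval 1.03 to 1.25). It had 306 with the top 20%, 0.840 times the expected number (0.749 to 0.940). The lowest value with the top 20% among the 10 was that of chr7:83000001-84000000, at 0.728 (0.638 to 0.827) on 235 contacts. The highest value with other members was that of chr7:6000001-7000000, at 1.24 (1.12 to 1.37) on 385 contacts. On their own chromosome the same bins ranged from 0.495 times the expected contact with the top 20% (10 contacts, chr8:120000001-121000000) to 1.27 (15 contacts, chr14:16000001-17000000), on too few contacts to tell them apart. Intervals of single bins are wide beside the differences between them, so the order among the 10 is not settled at this depth. The pooled map has no replicates, so all intervals here express counting error alone. Whether reads copied by PCR were removed is not known, and any that remain would make the intervals too narrow.

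Members were found on all 20 chromosomes, from 14 bins on chromosome 19 to 34 on chromosome 7. Their share of a chromosome's kept bins ran from 12.3% to 26.7%, with a median of 20.2%. The highest shares were those of chromosome 8 with 32 of 120 bins (26.7%), chromosome 7 with 34 of 128 (26.6%) and chromosome 19 with 14 of 54 (25.9%). The lowest were chromosome 4 with 17 of 138 (12.3%), chromosome 3 with 21 of 148 (14.2%) and chromosome 14 with 17 of 106 (16.0%). The exact binomial interval left out 20% only for chromosome 4 (7.34 to 18.99%). These intervals treat bins as independent, which neighbouring bins are not.

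The share of members did not mirror the share of top-scoring bins. Chromosome 11 had the most top-20% bins, 36 of 115 (31.3%), and still held 26 members (22.6%). Chromosome 19 had 27.8% of its bins in the top 20% and 25.9% among the members. X had the lowest mean score of the 20 chromosomes, at −6.01, with 4 of its 110 kept bins in the top 20% (3.64%). Its share of members was nonetheless 18.2% (20 bins, interval 11.5 to 26.7%). The median score on X, −7.13, lay above the threshold for members. Only 110 of the 167 bins of X were kept, and the part of this in the shares was not tested.

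**Figure D1:**
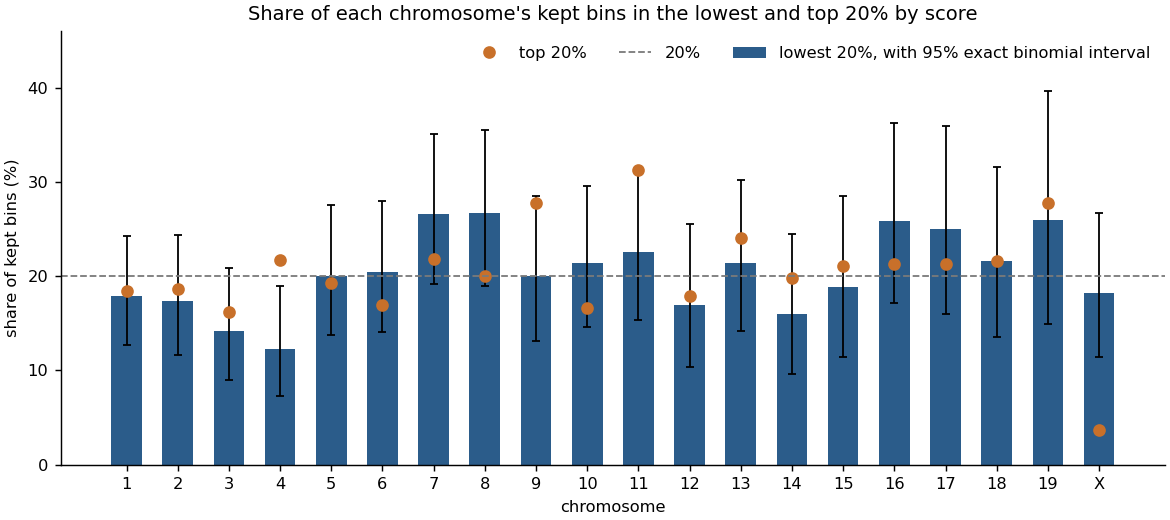
Share of each chromosome's kept bins among the members (bars, with 95% exact binomial intervals) and in the top 20% (points), in percent; the dashed line marks 20%. Bars run from 12.3% on chromosome 4 to 26.7% on chromosome 8, and X has few top-20% bins (3.64%) beside 18.2% members.

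Along the chromosomes, members were most frequent from 10 to 20 Mb after the low-coordinate end. Mouse chromosomes are telocentric, so this end lies beside the centromere. In that zone 54 of 189 kept bins were members (28.6%, exact binomial interval 22.2 to 35.6%), and 9 (4.76%) were in the top 20%. The first 10 Mb held 27 members among 125 kept bins (21.6%) and 13 top-20% bins (10.4%). The last 10 Mb held 46 among 196 (23.5%, 17.7 to 30.0%), beside 52 top-20% bins (26.5%). The inner part, 20 Mb or more from both ends, held 304 of 1641 (18.5%, 16.7 to 20.5%), the lowest share of the 5 zones. From 10 to 20 Mb before the high-coordinate end, 37 of 190 bins were members (19.5%) and 28.4% were in the top 20%. The interval for members left out 20% in 1 of the 5 zones, that from 10 to 20 Mb after the low-coordinate end.

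**Figure D2:**
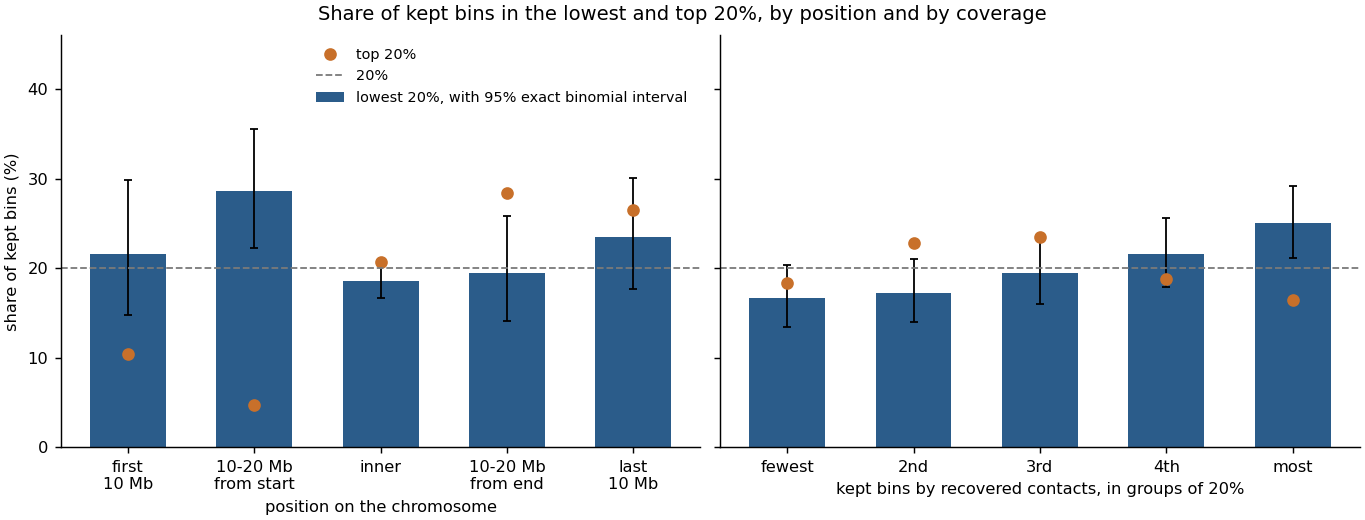
Share of kept bins among the members (bars, 95% exact binomial intervals) and in the top 20% (points), in percent, by position on the chromosome (left) and by recovered contacts per bin in groups of 20% (right); the dashed line marks 20%. Members reach 28.6% from 10 to 20 Mb after the low-coordinate end, and their share rises from 16.7% among the bins with fewest contacts to 25.0% among those with most.

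As scored at this depth, members were scattered rather than gathered in long blocks. The 468 members formed 330 runs of consecutive bins with a mean length of 1.42 Mb and a median of 1 Mb. Of these runs, 228 were single bins, which made up 48.7% of all members. Runs of 3 or more bins numbered 28 and held 92 members. The same number of top-20% bins formed 227 runs with a mean of 2.06 Mb, of which 108 were single bins and 64 had 3 or more bins. The longest run of members had 6 bins, and the longest top-20% run had 11. A bin that was not kept ended a run. Membership was only partly stable to the contacts used, as given below. The part of both in the run lengths was not tested.

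The longest run lay at chr1:22000001-28000000, with a mean score of −20.7. A run of 5 bins at chr10:49000001-54000000 had a mean of −24.6. The runs of 4 bins were chr5:126000001-130000000 at −24.0, chr14:13000001-17000000 at −24.5 and chr14:95000001-99000000 at −21.1. The run at chr14:13000001-17000000 included one of the 10 lowest bins. Its 4 bins had between 878 and 1322 contacts, below the median of 1714.5 over all members. In the run on chromosome 1 the bins had from 811 to 2197 contacts.

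**Figure D3:**
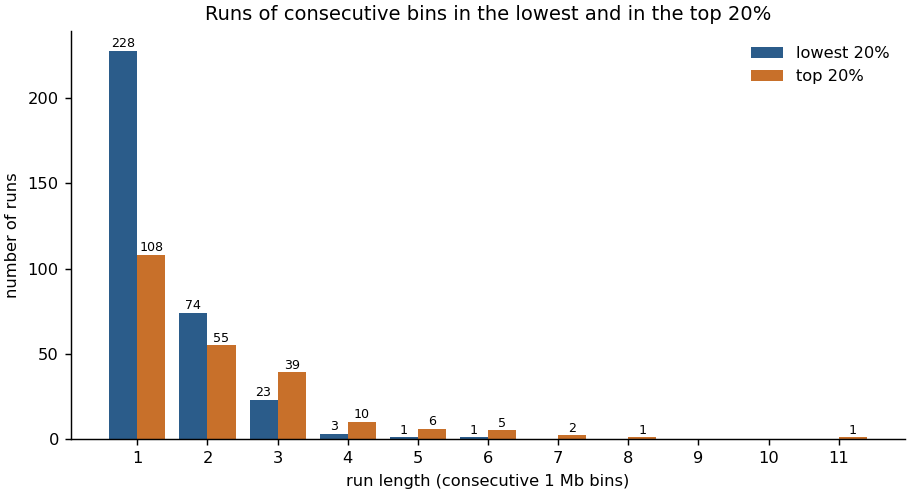
Number of runs of consecutive 1 Mb bins by run length, for the members (lowest 20%) and for the top 20%, 468 bins each. Single bins number 228 among member runs and 108 among top-20% runs, and the longest runs have 6 and 11 bins.

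Neighbouring bins nevertheless resembled one another. Over all kept bins with a kept neighbour, 33.8% had a neighbour among the members. For the members themselves the share was 51.6% (240 of 465). It was lower in each group further up the score, at 43.1%, 35.8%, 25.9% and, for the top 20%, 12.6%. A top-20% neighbour was found for 12.7% of members (59 of 465), against 31.8% of all kept bins and 76.9% of top-20% bins. Of the 750 adjacent pairs with at least 1 member, 138 joined members with each other, 234 joined a member to group 2 and 64 joined a member to the top 20%. In only 5 cases did a member have a top-20% bin on both sides.

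In contacts between chromosomes, from which the score was made, members were depleted toward the top 20% and modestly enriched with one another. The rule fixed these directions. Members met members on other chromosomes 82995 times, 1.09 times the expected number (95% Poisson interval 1.08 to 1.10). The expected number multiplies 1 factor per bin, fitted so that each bin keeps its total between chromosomes. An excess with some groups therefore goes with a deficit with others. With groups 2, 3 and 4 the values were 1.05 (1.04 to 1.06), 1.01 (1.01 to 1.02) and 0.969 (0.964 to 0.974). With the top 20% it was 0.874 (0.869 to 0.879), on 127178 contacts. Bins of the top 20% met one another at 1.20 (1.19 to 1.20), which was 1.10 times the value among members (1.09 to 1.11). Depth per pair was low. The mean was 0.8002 contacts per pair of members on different chromosomes, and no contact was seen for 47.1% of these pairs.

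Most members taken one by one showed the same direction, which the rule fixed by choosing members on these contacts. Contact with other members lay above 1 for 453 of 468 and ran from 0.956 to 1.29 with a median of 1.09. Contact with the top 20% lay below 1 for 466 and ran from 0.691 to 1.04 with a median of 0.872. For single bins the Poisson interval lay above 1 with members in 160 cases and below 1 with the top 20% in 300 cases. Counts for other kept bins are not given for these measures, so the counts do not set the members apart. The group next above the threshold, taken as a whole, also met members above expectation, at 1.05, and the top 20% below it, at 0.930. By chromosome, the members of all 20 met other members above 1 and the top 20% below 1, each with an interval that left out 1. A contact enters the values of the chromosomes at both its ends, so these overlap, and the rule fixed their direction.

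The separation was read again with a score made from other contacts. Odd-numbered chromosomes were scored from contacts among themselves, and even-numbered chromosomes and X from contacts among themselves. Contacts between these 2 sets, which neither score used, were then read. The sign within each set followed the score of the whole map, which did use these contacts. Which end of each set counts as lowest was therefore not independent of them, and only the sizes below were read apart from the score. Bins of the lowest 20% of one set met those of the other at 1.04 times the expected number (95% Poisson interval 1.03 to 1.05, 40968 contacts). They met the top 20% at 0.945 (0.938 to 0.952, 71557 contacts). The first value was 1.10 times the second (1.08 to 1.11).

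Both values were closer to 1 than those from the contacts that chose the members. The depletion toward the top 20%, 0.945, lay further from 1 than the enrichment among lowest bins, 1.04. Groups 2 and 3 were depleted toward the top 20% as well, at 0.960 (0.953 to 0.967) and 0.981 (0.974 to 0.988). Group 4 was not, at 1.01 (1.00 to 1.02). The lowest bins met group 2 at 1.02 (1.01 to 1.03), group 3 at 1.01 (1.00 to 1.02) and group 4 at 0.997 (0.990 to 1.00). Top-fifth bins met one another at 1.10 (1.09 to 1.12), which was 1.06 times the value among lowest bins (1.05 to 1.08). By chromosome the value among lowest bins ran from 1.01 to 1.07, above 1 on all 20 with an interval above 1 on 15. The value with the top 20% ran from 0.908 on chromosome 18 to 0.973 on chromosome 17, with an interval below 1 on 17 of 20.

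**Figure D4:**
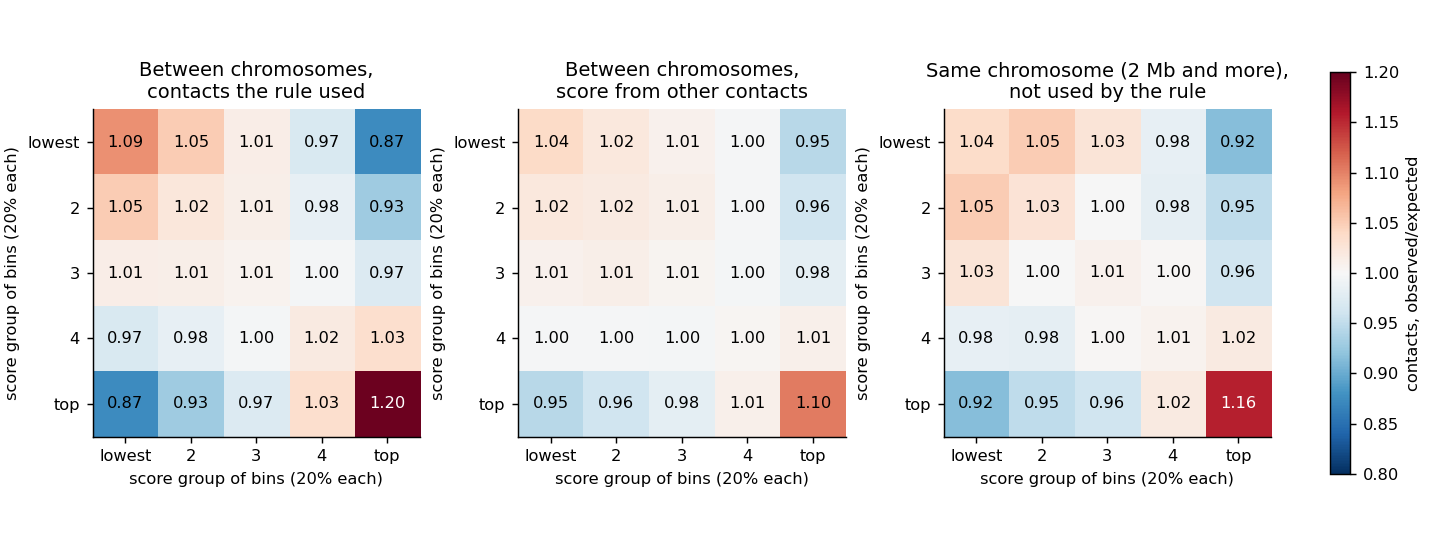
Contacts over expected between the 5 groups of bins ordered by score, for contacts between chromosomes that the rule used (left), contacts between chromosomes with the score taken from other contacts (centre) and same-chromosome contacts 2 Mb and more apart (right). In all 3 panels the highest value is that of the top 20% with itself (1.20, 1.10 and 1.16) and the lowest that of the lowest with the top 20% (0.874, 0.945 and 0.916).

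Membership itself was only partly stable to the contacts used. Over bins, the score within a set correlated with that of the whole map at r = 0.907 for the odd-numbered chromosomes (1166 bins) and at r = 0.750 for the others (1175 bins). These scores share contacts with the whole map. Of the 468 members, 281 (60.04%) were also in the lowest 20% of their own chromosome set, and 1 was in its top 20%. For the top 20%, 349 of 468 bins (74.6%) kept their place. Each bin was further scored once by its contacts with odd-numbered chromosomes and once by its contacts with the others. The lowest 20% by these scores shared 179 bins (38.2% of each list) and the top 20% shared 296 (63.2% of each). Of the bins lowest in the first list, 7 were in the top 20% of the second. Of the 179 bins lowest by both, 176 were members (37.6% of the members). The score of the whole map used both sets of partners, so this last overlap was largely set by the rule. Unrelated lists of 20% each would share about 20%.

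Same-chromosome contacts, which the score did not use, showed the same direction. Under the first reading of the table's name they join homologs. Expected numbers came from all kept pairs of the same chromosome and distance, and bins 2 Mb or more apart were counted. Members met the top 20% of their own chromosome 7439 times, 0.916 times the expected number (95% Poisson interval 0.895 to 0.937). They met one another 4283 times, at 1.04 (1.01 to 1.07). Contact among members was 1.04 times that with all other bins (1.01 to 1.08) and 1.13 times that with the top 20% (1.09 to 1.18). Without chromosome 5 the first of these ratios was 1.02 and its interval included 1 (0.986 to 1.05). Members met group 2 at 1.05 (1.03 to 1.07), which was 1.01 times the value among members (0.977 to 1.05). With group 3 the value was 1.03 (1.00 to 1.05), and with group 4 it was 0.984 (0.962 to 1.01). In the balanced values members met one another at 1.02 and groups 2 to 4 together at 1.02. Counts did not separate members from group 2 or group 3 in this respect, and the clear difference was that from the top 20%. Depletion toward the top 20% was not particular to members. Observed and expected numbers are equal over all pairs of a chromosome and distance. The top 20% met itself at 1.16 (1.12 to 1.19), and the depletion of other groups is not independent of this excess. Group 2 met the top 20% at 0.949 (0.927 to 0.971) and group 3 at 0.960 (0.939 to 0.982), whereas group 4 met it at 1.02 (0.996 to 1.04).

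Across chromosomes the depletion toward the top 20% was the steadier of these same-chromosome values. It was below 1 on 19 of 20 chromosomes, with an interval below 1 on 7 and above 1 on 0. The lowest was chromosome 14 at 0.825 (0.709 to 0.954), and chromosome 18 at 1.04 (0.922 to 1.16) was the one above 1. The value among members was above 1 on 14 chromosomes. Its interval lay above 1 on 1 of them, chromosome 10 (1.12, 1.00 to 1.25), and below 1 on 0. Single bins carry little information here, with a median of 16 such contacts with the top 20% per member. Of the 1873 bins outside the top 20% 58.7% lay below 1 in this measure, and of the 468 members 65.0% did (304 bins).

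By distance, the depletion toward the top 20% was deepest at short range. From 2 to 4 Mb members met top-20% bins at 0.768 (95% Poisson interval 0.680 to 0.864, 277 contacts). At 5 to 9 Mb it was 0.921 (0.849 to 0.999), and at 10 to 19 Mb it was 0.959 (0.903 to 1.02). The bins 20 to 49 Mb apart gave 0.925 (0.891 to 0.961). Those 50 to 99 Mb apart gave 0.910 (0.872 to 0.949), and those at 100 Mb or more 0.896 (0.829 to 0.967). The interval at 2 to 4 Mb overlaps that at 5 to 9 Mb. Contact among members showed no order with distance, and its interval left out 1 only from 10 to 19 Mb, at 1.09 (1.01 to 1.18). Adjacent bins, 1 Mb apart, gave 1.00 among members on 162 contacts and 1.04 with the top 20% on 69, with wide intervals (0.852 to 1.17 and 0.810 to 1.32).

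**Figure D5:**
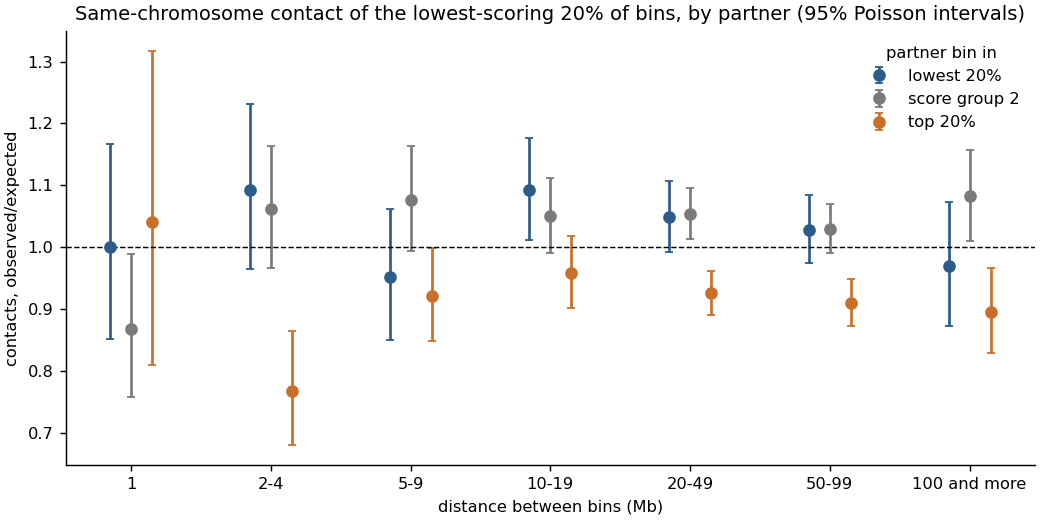
Same-chromosome contacts of members over expected (points with 95% Poisson intervals) by distance between the bins in Mb, for partners among the members, in group 2 and in the top 20%; the dashed line marks 1. Partners in the top 20% lie at 0.768 from 2 to 4 Mb and between 0.896 and 0.959 at all longer distances.

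Members were somewhat better covered than other bins. They had a median of 1714.5 recovered contacts (range 684 to 2805), against 1637 (651 to 2571) in the other kept bins. Without chromosome 11 the ratio of these medians was 1.03, and its interval included 1 (0.994 to 1.05). The share of members rose from 16.7% in the 20% of bins with fewest contacts (exact binomial interval 13.4 to 20.4%) to 25.0% in that with most (21.1 to 29.2%). For pairs of bins that both exceeded the median of contacts, the score from other contacts gave 1.04 among lowest bins (1.02 to 1.05) and 0.949 with the top 20% (0.937 to 0.961). Same-chromosome contacts of such bins gave 1.05 (1.01 to 1.10) and 0.932 (0.898 to 0.968). Among bins at or below the median, the score from other contacts gave 1.02 among lowest bins (0.995 to 1.05) and 0.942 with the top 20% (0.926 to 0.958). Same-chromosome contacts there gave 0.940 among members (0.855 to 1.03, 456 contacts) and 0.914 with the top 20% (0.862 to 0.969). The depletion toward the top 20% was therefore present at both depths, and the enrichment among members was measured beyond counting error only in the deeper bins.

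Members at the distal ends of chromosomes met one another more than inner members did, in contacts that the rule used. Members in the last 10 Mb met at 1.22 (95% Poisson interval 1.15 to 1.30, 46 bins). Members 10 Mb or more from both ends, here called inner, met at 1.09 (1.08 to 1.10, 395 bins). Among other kept bins the same zones gave 1.08 (1.06 to 1.10) and 1.01 (1.00 to 1.01). Members in the first 10 Mb met members in the last 10 Mb at 1.10 (1.04 to 1.17, 1054 contacts). Non-member bins of these opposite ends met below expectation, at 0.938 (0.918 to 0.957). Members of the first 10 Mb met one another at 1.15 (1.02 to 1.29) on 288 contacts from 27 bins.

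X and autosomal members were compared in their contacts with autosomal members. The rule used these contacts, so the side of 1 on which members lie was set by the choice. The values were 1.11 (95% Poisson interval 1.08 to 1.13, 5669 contacts) and 1.09 (1.08 to 1.10), with overlapping intervals. With the autosomal top 20% they were 0.879 (0.853 to 0.905) for X members and 0.873 (0.868 to 0.878) for autosomal members. The X bins outside the members met autosomal members at 1.02 (1.01 to 1.04). The X bins that were in neither outer group met the autosomal top 20% at 0.982 (0.969 to 0.995).

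Over the 190 pairs of chromosomes, member to member contact lay above 1 for 180, with a median of 1.09. The interval lay above 1 for 79 pairs and below 1 for 0. The rule chose the members on these contacts, so the direction of these counts was set by the choice. Counts for other kept bins by chromosome pair are not given. The highest were chromosomes 4 and X at 1.32 (1.16 to 1.50, 246 contacts), 14 and 17 at 1.28 (1.13 to 1.45) and 15 and 16 at 1.26 (1.14 to 1.40). The lowest were 4 and 15 at 0.917 (0.783 to 1.07, 166 contacts), 3 and 4 at 0.952 (0.840 to 1.08) and 4 and 12 at 0.957 (0.832 to 1.10). Chromosome 4, with the smallest share of members, was part of both the highest and the 3 lowest pairs. Few contacts stand behind each of these values, and the intervals of all 3 lowest pairs include 1.

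Single pairs of members rested on few contacts. At least 5 contacts were found for 287 of the 103713 pairs of members on different chromosomes (0.277%), against 0.194% of all pairs of kept bins on different chromosomes. The score used these contacts. The highest ratio was that of chr1:115000001-116000000 with chr18:86000001-87000000, on 10 contacts where 0.751 were expected (13.3, 95% Poisson interval 6.38 to 24.5). The next 4 had 5 contacts each. They joined chr7:14000001-15000000 with chr10:101000001-102000000 (11.4), chr5:131000001-132000000 with chr14:72000001-73000000 (10.6), chr12:48000001-49000000 with chr17:18000001-19000000 (10.46) and chr8:15000001-16000000 with chr18:41000001-42000000 (10.0). Pairs were ranked on these same values, so the ratios are descriptions of the extremes.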

How the data were processed

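The authors deposited 1 pooled matrix of balanced signal for pairs of bins 1 Mb long, and a list of bin coordinates. HiC-Pro 2.7.8, bedtools and the build mm9 are named in the submitters' processing notes, whereas the aligner, the read filters and the libraries pooled were not given in the sources used here. Each listed signal was a whole contact number times 1 factor per bin, and 100% of 1365118 pairs were whole within 0.01. Contact ratios use these recovered contacts (1877655 between kept bins, 1776055 across chromosomes), and Poisson, exact conditional and exact binomial intervals are at 95%. Members, comparisons and lists were chosen with earlier results of these data known. Named bins follow a rule: the 10 lowest scores (1 per 5 Mb), 3 bins on each side of the threshold, the 5 longest runs, the 3 highest and lowest chromosomes and chromosome pairs, X, and the 5 highest member pairs with at least 5 contacts. Gene content, gene lists and sequences were not analysed, since the gene table used a build other than mm9. Steps were tested on simulated data. The software was pandas 2.3.3, scipy 1.17.1, numpy 2.4.6 and matplotlib 3.10.9 under Python 3.11.15.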

Additional observations from a re-analysis of the deposited data

Results flagged for a closer look

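Contacts of the 232 bins left out for few partners entered no comparison above. Their 72791 contacts with kept bins on other chromosomes included 15284 with members, at an observed to expected ratio of 1.01 (95% Poisson interval 0.995 to 1.03). With the top 20% the value was 0.984 (0.967 to 0.9999). They were singled out as a signal in data the comparisons did not use. The interval for members includes 1, and that for the top 20% lies just below it.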

How the results depend on the processing

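The directions held in most settings. With the score taken from recovered counts 95.5% of members were shared with the list described, and with values of extreme size capped 98.3%. With the lowest 20% taken within each chromosome 91.2% were shared, and with autosomes only 88.9%. Without any 1 chromosome it was 81.0 to 89.7%. Members on a chromosome left out, or removed by a stricter filter, count as not shared. Of the list found in each setting, members made up 93.3% with autosomes only and 85.6 to 93.3% without any 1 chromosome. A bin filter at 80% shared 66.5% of the members (78.3% of its own list), no bin filter 19.02% and listed pairs alone 15.8%, so the last 2 describe other bins.

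Without the bin filter member to member contact was 1.01, contact with the top 20% 0.989, the share with a neighbouring member 37.0% and the coverage ratio 1.01. With the score from other contacts the values there were 0.999 among lowest bins and 1.00 with the top 20%, and same-chromosome contact with the top 20% was 1.02. With listed pairs alone member to member contact was 0.957 and contact with the top 20% 1.04. With the score from other contacts the values were 1.00 and 1.00. Same-chromosome contact was 0.984 for members over other bins and 1.00 with the top 20%. In that setting 58.2% of X bins were members, and members had 0.626 times the median contacts of other bins, so poorly covered bins were chosen. With the filter at 80%, same-chromosome contact among members over other bins was 1.08 and the share with a neighbouring member 46.1%.

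The lowest 10% against the top 10% gave 1.12 among members and 0.806 with the top 10%. From other contacts these were 1.05 and 0.913. On the same chromosome contact with the top 10% was 0.834 and that among members over other bins 1.01 (0.947 to 1.07), 29.1% had a neighbouring member, 6.36% of X bins were members, and the coverage ratio was 1.07. Balanced values gave 0.863 for contact with the top 20%. Chromosomes 1 to 9 set against the rest gave 0.930 with the top 20% from other contacts. The cause of these shifts was not tested. Readings of contact with the top 20% from other contacts or from the same chromosome, and those restricted to deeper bins, were added after the data were seen.

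Leaving out each chromosome in turn gave 1.09 to 1.10 for member to member contact and 0.869 to 0.880 with the top 20%. From other contacts the ranges were 1.03 to 1.04 and 0.942 to 0.958. On the same chromosome they were 1.02 to 1.06 for members over other bins and 0.904 to 0.927 with the top 20%. The share with a neighbouring member was 45.3 to 52.8%, that of X bins 16.4 to 23.6% and the coverage ratio 1.03 to 1.06. The intervals of members over other bins and of the coverage ratio included 1 without chromosome 5 and without chromosome 11 respectively. Gene starts were not run, and no replicate could be left out of the pooled map. No paired analysis was possible because the labels give 1 group and the map is pooled. Depth limits what single bins and pairs can show.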

Other observations

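Contacts with both ends in the same bin were not used in the comparisons above. Members held 618 of the 2789 such contacts in kept bins, a ratio of 3.42 to the expected number (95% Poisson interval 3.15 to 3.70). The expected number within a bin was taken as 50% of its squared factor. The other kept bins had 3.27 (3.13 to 3.41), so the intervals overlap. At least 1 such contact was found in 61.1% of members and in 56.2% of the other kept bins. Same-chromosome contacts made up 5.32% of the contact ends of members (exact binomial interval 5.27 to 5.37%) and 5.43% of those of other kept bins (5.41 to 5.46%).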
